A study of Sus scrofa with 2 samples.

Results

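Cells rich in mitochondrial ribosomal RNA were examined in 2 single-cell RNA libraries of cultured adipose-derived stem cells of healthy Bama miniature pigs. They were chosen by their measured values, as barcodes with at least 1000 detected genes and 0.5% to 15% of their unique molecular identifiers (UMIs, each standing for 1 captured RNA molecule) from genes named KEF22_, which are the ribosomal and transfer RNA genes of the mitochondrial genome. The rule gave 503 cells in library 1 and 185 in library 2, 688 of 22543 cells with at least 1000 genes and of 25207 barcodes in all. The comparison cells, with at least 1000 genes and under 0.5%, numbered 10056 and 11799. A further 1692 and 972 barcodes held fewer than 1000 genes.

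The cells were stromal cells grown out of fat of the chest, expanded for 3 generations within 14 days and frozen, per the labels. No treatment or other group is named, and the labels do not tell if different animals or cultures gave rise to them. The libraries shared 46 barcode sequences, and none of these belonged to an rRNA-rich cell in both. Library totals were 211527905 and 246316928 UMIs. The rRNA-rich cells held 2416542 and 857179 of these, which is 1.15% and 0.349% of the UMIs of barcodes with at least 1000 genes.

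Mitochondria keep a small genome of their own. It is transcribed as long precursors that are cut into messenger, transfer and ribosomal RNAs, and the small- and large-subunit ribosomal RNAs are built, with proteins imported from the cytosol, into the ribosomes that make core subunits of the respiratory chain. These RNAs lie behind the mitochondrial membranes, apart from the cytosolic messenger RNA that makes up most of a usual single-cell library.

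The rRNA-rich cells were 4.76% of the cells of library 1 (exact binomial 95% interval 4.37% to 5.19%) and 1.54% of those of library 2 (1.33% to 1.78%). Intervals on shares cover counting error only. The 2 ribosomal RNA genes supplied nearly all of the mitochondrial signal that defined these cells. In them 99.97% and 99.98% of the UMIs of KEF22_ genes came from KEF22_r02, the small-subunit rRNA (mitochondrial genome, 1246 to 2205, Sscrofa11.1, RefSeq), and KEF22_r01, the large-subunit rRNA (2274 to 3844). The files held 21 transfer RNA genes of this name, with 12 and 4 UMIs in all rRNA-rich cells. The 13 mitochondrial messenger RNAs were not analysed here.

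Per kilobase of gene, the rRNA-rich cells of library 1 held a mean of 49.3 small-subunit and 13.4 large-subunit UMIs per cell, against 18.6 and 5.45 in the comparison cells. In library 2 they held 65.6 and 16.2, against 15.9 and 4.28. The small subunit was thus counted above the large one in every class, 3.67- and 4.04-fold per kilobase in the rRNA-rich cells and 3.41- and 3.71-fold in the comparison cells. These values describe the genes that chose the cells and were given no test.

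The share of KEF22_ genes ran up to 12.1% of UMIs in library 1, with a median of 0.849%, and up to 12.2% in library 2, with a median of 1.56%. The median in the comparison cells was 0.132% and 0.111%. The total of UMIs is the denominator of the rule, and the numerator differed too. Medians were 4051 and 4020 UMIs per rRNA-rich cell and 20517.5 and 19909 per comparison cell. Their median number of KEF22_ UMIs was 46 and 73 per cell, against 26 and 21.

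The KEF22_ share ran across the boundary at 0.5% without a break. Neighbours in an order by share are alike at almost any cut, so these values cannot tell whether separate populations overlap there. The 20 cells just outside it in library 1 had shares of 0.491% to 0.499% and a median of 30 KEF22_ UMIs, and the 20 just inside had up to 0.513% and the same median of 30. In library 2 the 20 outside had 0.461% to 0.499% and a median of 36 KEF22_ UMIs, and the 20 inside had up to 0.534% and 31.5.

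The name of the cells held for the upper part of the range more than for the lower. Between 0.5% and 1% of UMIs, 282 cells of library 1 and 69 of library 2 had a median of 28 and 34 KEF22_ UMIs, which is close to the 28 and 29 of comparison cells with 0.25% to 0.5%. Cells with at least 2% (139 and 82) had a median of 131 KEF22_ UMIs in each library, at a median of 3675 and 2676 UMIs in all. The lower part of the range thus had few UMIs in all and an ordinary number of mitochondrial rRNA UMIs, and the upper part had a higher number of both subunits as well.

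**Figure D1:**
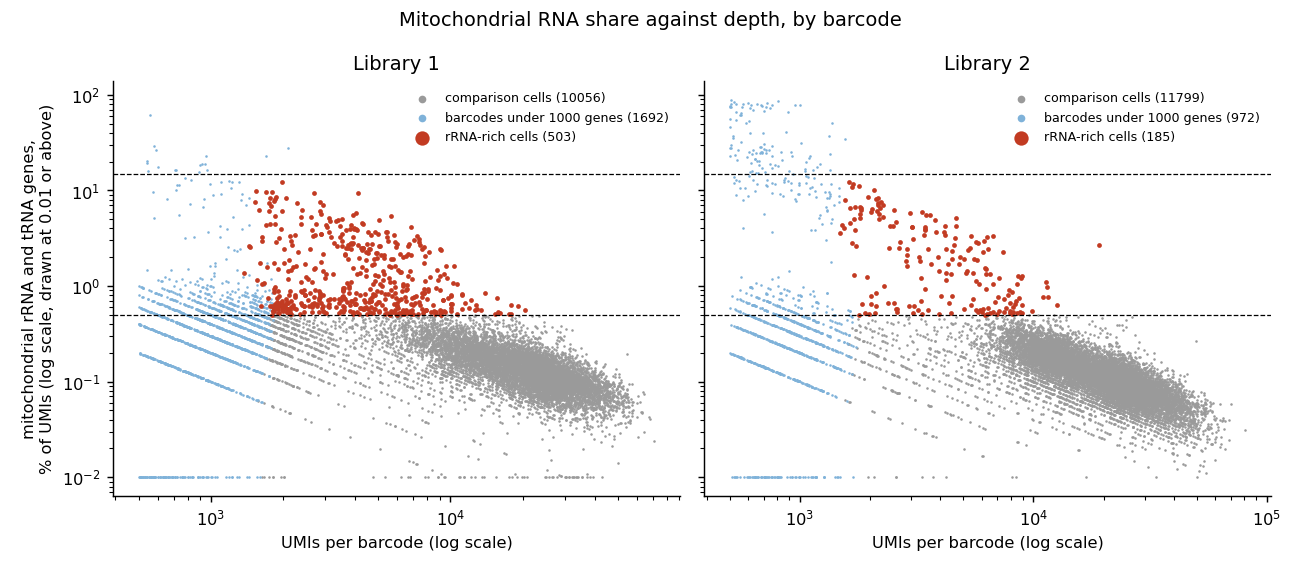
Share of UMIs from mitochondrial rRNA and tRNA genes (vertical, percent, log scale) against UMIs per barcode (horizontal, log scale) in library 1 and library 2, 1 point per barcode, with dashed lines at 0.5% and 15%. The rRNA-rich cells (red) sit at a median of 4051 and 4020 UMIs, left of the bulk of the comparison cells (grey), and run on from them at 0.5% without a gap.

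Cytosolic ribosomal protein genes, which encode the proteins of the cytoplasmic ribosome and are among the most abundant messenger RNAs of a growing cell, took a falling share of the remaining UMIs as the mitochondrial share went up. In comparison cells they made up a median of 25.8% and 25.9% of the UMIs outside KEF22_ genes. In rRNA-rich cells with 0.5% to 1% the median was 23.2% and 23.9%, and with 1% to 2% it was 11.6% and 7.37%. In cells with 2% to 5% it was 2.73% and 2.61%, and with 5% to 15% it was 3.18% and 2.62%.

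Genes that span at least 100 kb of genome, from the first to the last base of the RefSeq gene, went the other way. They took a median of 9.13% and 10.8% of UMIs in comparison cells and 13.7% and 11.9% in rRNA-rich cells of the lowest range. From 1% to 2% they took 28.1% and 38.3%, from 2% to 5% 46.8% and 52.1%, and from 5% to 15% 46.2% and 53.6%. Within the rRNA-rich cells the Spearman correlation of the mitochondrial share with the ribosomal protein share was -0.77 over 503 cells and -0.72 over 185, and with the long-gene share 0.75 and 0.75. The points of a correlation come from 1 library and both shares depend on the depth of the same cell.

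The rRNA-rich cells were thus a mixture by this measure. The 1st percentile of the ribosomal protein share of comparison cells was 19.8% and 20.3%, and 279 of 503 (55.5%) and 130 of 185 (70.3%) rRNA-rich cells lay below it. Of those with 0.5% to 1%, 25.5% and 23.2% did, of those with 1% to 2% 84.1% and 97.1%, and of those with 2% to 5% 99.1% and 98.0%. All 31 and 33 cells with 5% to 15% lay below it. Barcodes with fewer than 1000 genes, at a median of 1013.5 and 874 UMIs, had a median ribosomal protein share of 23.3% and 21.2% and a long-gene share of 10.8% and 13.54%. Of them 5.91% and 35.3% lay below the 1st percentile of the ribosomal protein share, so library 2 had more of them there. The part of depth in these shares was not tested.

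**Figure D2:**
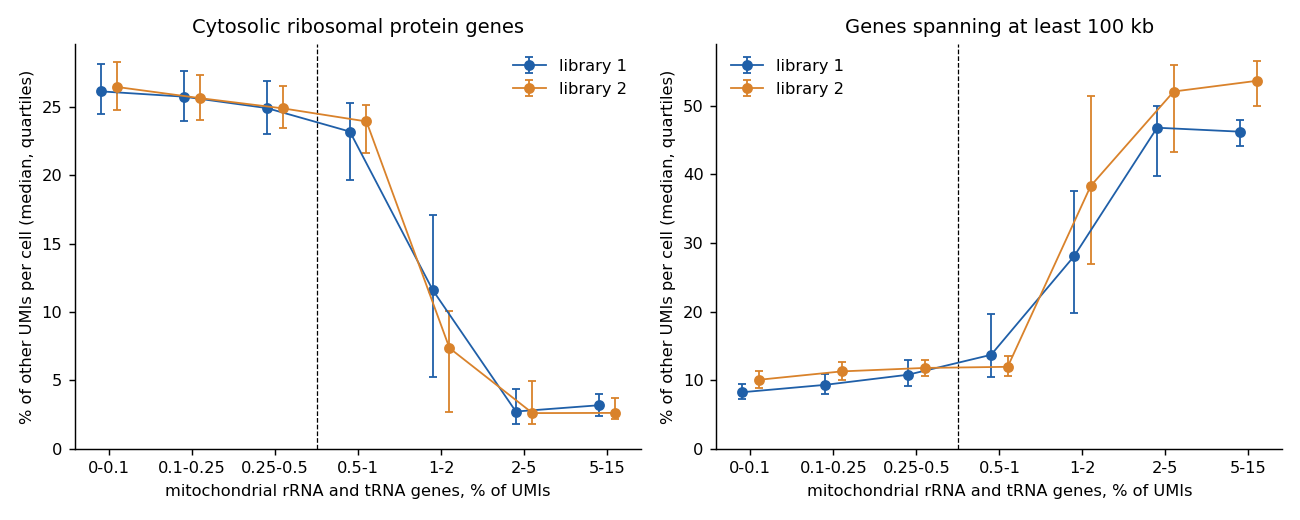
Median share per cell, with quartiles, of cytosolic ribosomal protein genes (left) and of genes spanning at least 100 kb (right), in percent of UMIs outside mitochondrial rRNA and tRNA genes, by the range of the mitochondrial share; the dashed line marks 0.5%. Both libraries change between 0.5% and 2%, from 23.2% and 23.9% ribosomal protein UMIs at 0.5% to 1% to 2.73% and 2.61% at 2% to 5%.

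More genes were detected per UMI in the rRNA-rich cells. After each cell was thinned to 2000 UMIs outside KEF22_ genes, their median was 1223 genes in library 1 (432 cells deep enough, 71 left out) and 1259 in library 2 (153 cells, 32 left out). Comparison cells had 1036 and 1044, and comparison cells matched to them on UMIs had 1092 and 1088. Unthinned medians were 1955 and 2040 against 4532.5 and 4559.

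SOX6 and ZNF423 were given as markers of these cells together with the rule, so their levels are a description. SOX6, a transcription factor of cartilage and muscle development (chromosome 2, 42447391 to 43068824, 621 kb), stood at 25.8 and 33.6 CPM (UMI counts scaled to a common library total) in the rRNA-rich cells of libraries 1 and 2 and at 10.7 and 13.1 in comparison cells. ZNF423, a zinc finger factor known from preadipocytes (chromosome 6, 34929286 to 35299695, 370 kb), stood at 30.7 and 66.3 against 11.6 and 20.4. CPM here are taken over UMIs outside KEF22_ genes, with totals adjusted by the trimmed mean of M-values (TMM). In unadjusted CPM over the ranges of mitochondrial share, SOX6 went from 26.5 at 0.5% to 1% (39 UMIs) to 56.0 at 5% to 15% (4 UMIs) in library 1 and from 7.52 (3 UMIs) to 147 (10 UMIs) in library 2. ZNF423 went from 13.6 (20 UMIs) to 112 (8 UMIs) and from 37.6 (15 UMIs) to 221 (15 UMIs). Both markers were highest in the upper range in each library, on these few UMIs, and SOX6 at 0.5% to 1% in library 2 was below the 9.03 to 14.1 of the ranges under 0.5% in that library.

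Of 12 stromal markers 1 was higher, 7 were lower and 4 did not meet the call rule in the rRNA-rich cells (unscaled 4, 1 and 7), by the test described below. All 12 had UMIs in these cells in both libraries, although NT5E had 2 in library 2. COL1A1, the main chain of type I collagen, stood at 1421 and 1508 TMM-scaled CPM in the rRNA-rich cells and 1460 and 1803 in comparison cells, and PDGFRA, a receptor of stromal progenitors, at 223 and 305 against 166 and 204; neither met the call rule. CD44, the hyaluronan receptor, met it as higher (log2 fold change 0.62, SE 0.13), although not without the library as a block. The intermediate filament gene VIM (-1.87, SE 0.25) and the proteoglycan gene DCN (-1.07, SE 0.15) were lower, and the call of DCN was lost unscaled (-0.21) while that of VIM held (-1.005).

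Many markers of other cell types had no UMI in the rRNA-rich cells, while others of most of these lists were detected. Of 11 lymphocyte genes 9 had no UMI in library 1 and 10 in library 2, among them CD3E, CD3D, CD2 and MS4A1. Of 10 adipocyte genes 4 and 7 had none, with LEP, PLIN1 and PLIN4 at 0 in both. Of 11 endothelial genes 4 and 6 had none, with CDH5, KDR and CLDN5 at 0 in both. Of 13 macrophage genes 5 and 9 had none (the 3 C1Q genes and CD163 in both), and of 9 epithelial genes 5 and 7 (EPCAM, KRT8 and KRT18 in both). Of 6 mesothelial genes 4 and 3 had none (UPK3B in both), and of 8 Schwann cell genes 4 and 6 (SOX10 and CDH19 in both). Of 7 erythroid genes 6 and 7 had none (HBB in both), and of 10 mural genes 2 and 3 (DES in both). Of 8 skeletal muscle genes 4 and 5 had none (MYOD1 and MYOG in both). The genes at 0 were not set 1 by 1 against their level in comparison cells.

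A few genes gave most of the UMIs of some of these lists, and ERG, ITGAM, ABCC9, CD79A and PAX7 were called higher in the rRNA-rich cells, none of them without the block. Against comparison cells matched on UMIs ERG kept the call (0.82), ITGAM (0.46) and ABCC9 (0.57) lost it, and CD79A and PAX7 were not tested. In the rRNA-rich cells of library 2 CD79A had 5 UMIs and PAX7 had 7. In library 1 PAX7 stood at 0.65 against 0.56 CPM. Endothelial genes summed to 118 and 199 CPM in the rRNA-rich cells against 95.8 and 122 in comparison cells, and ERG alone gave 288 of 361 and 193 of 237 UMIs. Macrophage genes summed to 101 and 26.02 against 85.5 and 32.5, with 222 of 310 UMIs from ITGAM in library 1, where ITGAM stood at 72.4 against 40.8 CPM; in library 2 it stood at 2.52 against 0.71. Mural genes summed to 46.6 and 69.7 against 46.2 and 56.9, epithelial genes to 46.6 and 31.1 against 127 and 112, and Schwann cell genes to 93.6 and 94.8 against 190 and 167. Lymphocyte genes summed to 22.2 and 4.20 against 14.99 and 2.08, mesothelial genes to 21.5 and 7.55 against 37.0 and 23.5, adipocyte genes to 7.83 and 5.87 against 7.97 and 6.59, and skeletal muscle genes to 5.87 and 10.9 against 4.02 and 3.16. No erythroid gene was tested. The part of such genes in the results below was not tested.

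The rRNA-rich cells differed from the comparison cells over much of the transcriptome. UMIs were summed per library and class and 17693 genes were fitted with edgeR's quasi-likelihood test, with the library as a block. A gene was called at an adjusted p under 0.05, a log2 fold change of at least 0.5 in size and the same sign in both libraries. By this rule 2359 genes (13.3% of those tested) were higher and 4790 (27.1%) lower in the rRNA-rich cells. With 1 residual degree of freedom, the fit drew its spread from all genes together (median prior degrees of freedom infinite). For most genes the p-values and SEs thus do not measure how far that gene's class difference varied from 1 library to the other. The pooled spread may be technical.

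The balance between higher and lower depended on the scaling. In CPM without the TMM adjustment, log2 fold changes were higher by a median of 0.86, and 6016 genes (34%) were higher and 1722 (9.73%) lower. The median over all genes tested was -0.11 with TMM and 0.74 without. Medians of lists below that turn sign unscaled are to be read beside this shift. All 2359 higher genes kept that call, and of the 4790 lower genes 1722 kept theirs, 3068 no longer passed and 0 turned higher. Against comparison cells matched on UMIs, of 10242 genes tested 2567 (25.1%) were higher and 2642 (25.8%) lower. Fold changes below are TMM-scaled unless said to be unscaled, and every gene called higher in this comparison was also called higher unscaled.

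The span of a gene on the genome went with its difference. Over 8811 genes that averaged 10 CPM or more and had a span, the Spearman correlation of span and log2 fold change was 0.74, and it was 0.72 and 0.74 in libraries 1 and 2. Genes are not independent replicates, and the value is a description. Called higher genes had a median span of 113 kb and called lower genes 12.3 kb. In the decile of shortest genes, from 0.36 to 5.09 kb, 839 of 882 were lower and 6 higher. In the decile of longest genes, from 171 to 2584 kb, 670 of 881 were higher and 18 lower. Against comparison cells matched on UMIs the correlation was 0.72.

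**Figure D3:**
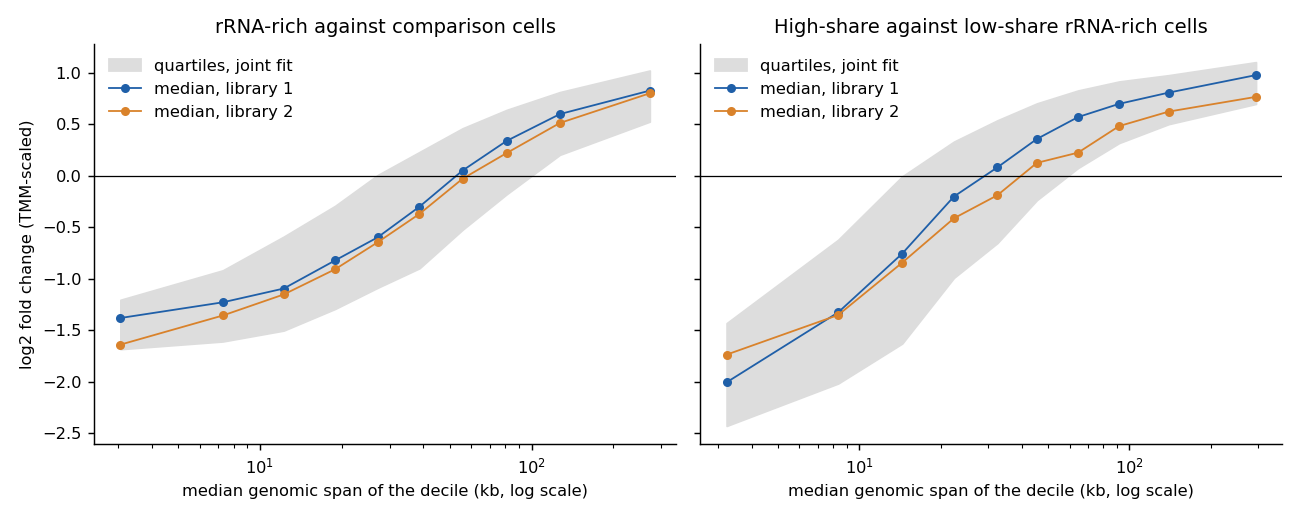
Median log2 fold change (TMM-scaled) of genes in 10 groups of equal size by genomic span (horizontal, kb, log scale), by library, with the quartiles of the joint fit in grey. In the left panel the rRNA-rich against comparison medians of the joint fit run from -1.49 in the shortest to 0.81 in the longest genes; in the right panel cells with at least 2% against those with 0.5% to under 2% run from -2.01 to 0.91.

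By kind of gene, 2093 (14.2%) of 14717 protein-coding genes were higher and 4591 (31.2%) lower. Of 2456 long noncoding RNA genes 243 (9.89%) were higher and 127 (5.17%) lower. Of 49 transcribed pseudogenes 1 was higher and 29 lower. How the counting divided reads between such copies and their parent genes is not given in the sources used here.

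Genes for the protein side of mitochondria were low in the rRNA-rich cells, as were most short genes of any kind. Of 75 tested genes for proteins of the mitochondrial ribosome, 0 were higher and 72 lower, with a median log2 fold change of -1.60, against -0.11 over all genes tested. Unscaled, 2 were higher and 56 lower. The list has a median span of 9.33 kb. In decile 2 by span, from 5.11 to 9.73 kb, 766 of 882 genes of any kind were lower and 8 higher, with a median of -1.29. MRPS17, of the small subunit, stood at 23.8 and 15.9 CPM in rRNA-rich cells of libraries 1 and 2 and at 102 and 94.3 in comparison cells (log2 fold change -2.25, SE 0.19, adjusted p = 8.27e-31). MRPL19, of the large subunit, stood at 11.09 and 10.1 against 46.3 and 41.8 (-2.06, SE 0.23). MRPS12 and MRPS16 fell by 2.02 and 1.99. The 3 that did not pass, named after their values were seen, were MRPS27 (0.06), MRPS30 (0.17) and MRPL53 (-0.84), and the first 2 of these span 134 and 90.1 kb and were called higher unscaled.

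The nuclear-encoded subunits of the respiratory chain and ATP synthase fell with them. Of 68 tested, 0 were higher and 67 lower (57 unscaled), with a median of -1.63. The median span of this list is 7.39 kb, also in decile 2. NDUFC1, a subunit of complex I, stood at 14.7 and 15.9 CPM against 65.9 and 63.0 (-2.10, SE 0.21). ATP5G3, which encodes a subunit of the membrane ring of ATP synthase, stood at 286 and 306 against 1208 and 1137 (-1.99, SE 0.16), and ATP5O and ATP5F1 fell by 1.94 and 1.87. In each of these genes both values of the rRNA-rich cells were below both values of the comparison cells. The gene that did not pass, ATP5SL, spans 159 kb (-0.39, SE 0.15; unscaled 0.48).

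Genes of mitochondrial DNA expression and RNA processing, a list that also holds a DNA polymerase subunit, moved in no single direction. Of 33 tested, 2 were higher and 15 lower with a median of -0.59, and unscaled 8 were higher and 4 lower with a median of 0.27. Over all genes tested the medians were -0.11 and 0.74, so the list lay below them by both scalings. HSD17B10, a subunit of the enzyme that trims mitochondrial transfer RNA ends, fell from 204 and 190 CPM to 68.2 and 53.7 (-1.68, SE 0.15, unscaled -0.82). SLIRP, which steadies mitochondrial messenger RNA, fell by 1.496 (unscaled fell by 0.64), and PDE12, a mitochondrial RNA deadenylase, by 1.69, though PDE12 did not pass against cells matched on UMIs. The 2 higher genes, named after their values were seen, were POLG2, the accessory subunit of the mitochondrial DNA polymerase (0.89), and MTERF1, a mitochondrial transcription termination factor (0.70). Neither was called without the block.

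Genes of mitochondrial dynamics, mitophagy and biogenesis were likewise mixed. Of 22 tested, 2 were higher and 12 lower, with a median of -0.61, and unscaled 10 were higher and 6 lower with a median of 0.25. The outer-membrane channel genes VDAC2 and VDAC3 fell by 1.92 and 1.67 (unscaled -1.06 and -0.81), and the mitophagy receptor genes FUNDC1 and BNIP3 by 1.64 and 1.61. NRF1, a regulator of nuclear genes for mitochondria, stood at 77.6 and 116 CPM against 43.5 and 61.7 and rose by 0.87; it was named after its value was seen and was not called without the block.

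Among the abundant transcripts of the cytosol the cytosolic ribosomal proteins changed as a block. Of 80 tested, 0 were higher and 79 lower, with a median of -1.65, and unscaled 73 were lower. Their median span is 3.98 kb, in the decile of shortest genes. RPS12 stood at 2969 and 2641 CPM in the rRNA-rich cells and 10758 and 11325 in comparison cells (-1.98, SE 0.22), and RPLP0 at 2842 and 2980 against 11055 and 11387 (-1.95, SE 0.22). RPL3L, with 5 and 0 UMIs in rRNA-rich cells, did not pass. These genes have many processed copies in mammalian genomes, and how the counting divided reads among copies is not given in the sources used here.

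Other compact, highly expressed genes went the same way. Of 42 proteasome genes 40 were lower and 1 higher (unscaled 30 and 2), with PSMA4 at 44.7 and 42.8 CPM against 169 and 182 (-1.98, SE 0.16). PSME4, a proteasome activator gene spanning 106 kb, was the higher one (0.91). Of 25 cytoskeleton and abundant cytosolic genes 24 were lower and 0 higher (unscaled 22 and 1), with PFN1, which encodes the actin-binding profilin, at 202 and 152 against 749 and 575 (-1.91, SE 0.15). ACTB, beta-actin, did not pass, at 772 and 672 against 687 and 927 (-0.14, SE 0.15), and was called higher unscaled (0.73). The gamma-actin gene ACTG1 fell by 1.86. Against comparison cells matched on UMIs both were called lower, ACTB at -1.405 and ACTG1 at -1.249. The contrast of the 2 actin genes was thus not seen with matched cells. It was noticed in the values and the difference between these genes was not tested.

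Of 19 glycolysis genes 16 were lower and 1 higher (unscaled 10 and 1). LDHA, lactate dehydrogenase, stood at 306 and 321 CPM against 1305 and 1129 (-1.96, SE 0.16). HK2, the hexokinase that sits on the mitochondrial surface, was the higher gene, at 264 and 52.9 against 114 and 31.3 (1.05, SE 0.15), and was not called without the block. Its groups overlapped across libraries but not within either. FTH1 and FTL, the ferritin chains that store iron, fell by 1.95 and 1.64 among 8 tested iron genes, of which 4 were lower and 1 higher (unscaled 2 and 4).

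**Figure D4:**
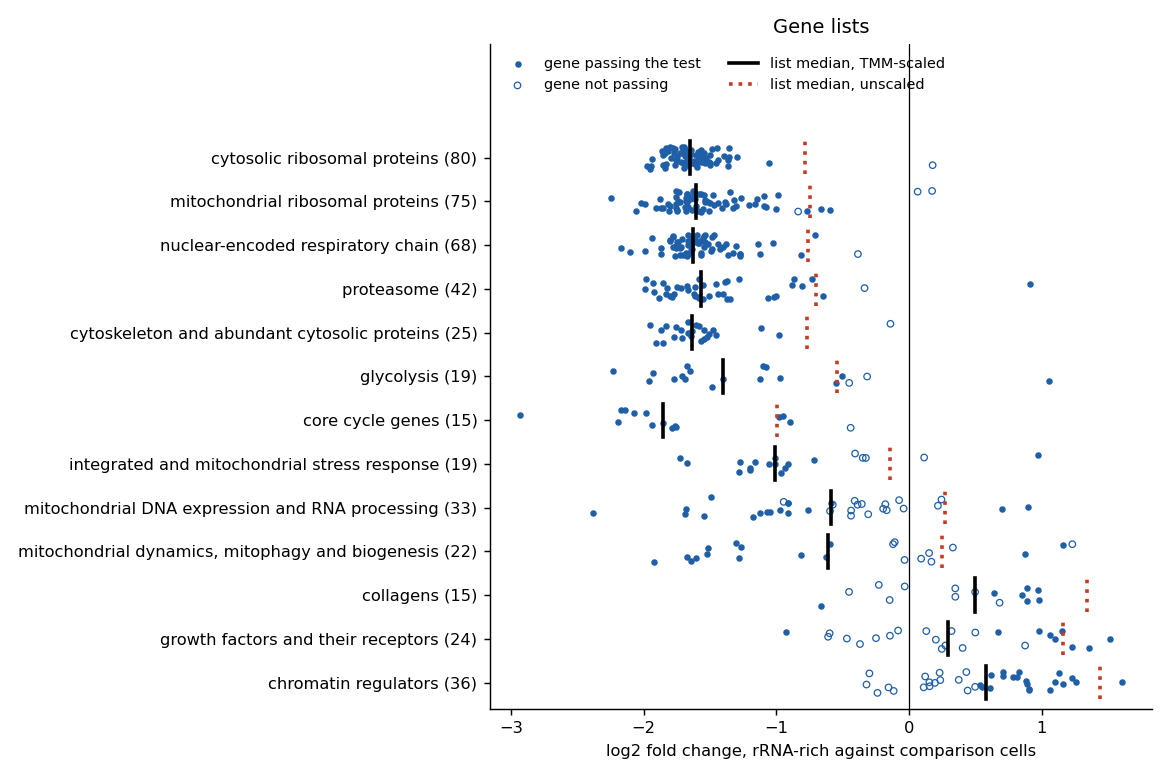
Log2 fold change (TMM-scaled) of each tested gene in 13 lists, rRNA-rich against comparison cells, with the number of genes in brackets; filled points passed the test, black bars are list medians and dotted red bars the medians without TMM. The ribosomal, respiratory chain, proteasome and cytoskeleton lists have medians between -1.57 and -1.65 and stay below 0 unscaled. The chromatin list lies at 0.58 and 1.44. The dotted bars of the lists for mitochondrial DNA expression and RNA processing and for mitochondrial dynamics lie above 0.

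Stress programmes did not rise as groups. Of 19 genes of the integrated and mitochondrial stress response 1 was higher and 14 lower, and unscaled 4 were higher and 2 lower. HSPE1, the mitochondrial chaperonin partner, fell from 570 and 532 CPM to 183 and 149 (-1.73, SE 0.14, unscaled -0.86). ATF4, the transcription factor at the centre of this response, stood at 484 and 302 against 999.5 and 784 (-1.20, SE 0.15), a call that was lost unscaled (-0.33). SESN2, sestrin 2, was the higher gene, at 62.3 and 82.2 against 33.9 and 38.8 (0.97, SE 0.16), and was named after its value was seen.

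Of 17 apoptosis genes 4 were higher and 6 lower, with a median of -0.36. Unscaled, 9 were higher and 2 lower, with a median of 0.50 against 0.74 over all genes tested. DIABLO, an inhibitor of inhibitors of apoptosis that resides in mitochondria, stood at 49.2 and 57.1 CPM against 137 and 133 (-1.37, SE 0.15, unscaled -0.51). BCL2L11, which encodes the pro-apoptotic protein BIM, stood at 118 and 45.3 against 65.1 and 21.9 (0.92, SE 0.16), and was not called without the block. The other higher genes were BCL2, FAS and BIRC3, none of them called without the block, and BCL2 and FAS were not called with DESeq2. FAS, at 7.17 and 7.55 CPM in the rRNA-rich cells, was also not called against cells matched on UMIs (0.91).

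Of 18 immediate early genes 0 were higher and 10 lower, and unscaled 6 were higher and 4 lower, with the median turning from -0.78 to 0.08. FOS stood at 83.2 and 67.1 CPM against 248 and 198 (-1.57, SE 0.14, unscaled -0.71) and KLF2 fell by 1.61 (unscaled -0.75). Of 17 endoplasmic reticulum stress genes 2 were higher and 11 lower (unscaled 5 and 2), and the median turned from -0.85 to 0.02. The secreted chaperone gene MANF fell by 1.58 and the higher genes were the sensor gene ERN1 (0.74) and EDEM1 (0.65), neither called without the block.

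Regulators of chromatin stood higher, near the level of other genes of like span. Of 36 tested, which span a median of 135 kb, 20 were higher and 0 lower, with a median of 0.58. Unscaled, all 36 were higher. In decile 9 by span, from 100 to 171 kb, 500 of 881 genes of any kind (56.8%) were higher and 54 lower, with a median of 0.59. TET3, which oxidises methylated cytosine, stood at 20.9 and 34.4 CPM against 8.34 and 8.74 (1.61, SE 0.23). CHD7, a nucleosome remodeller, stood at 42.1 and 46.2 against 17.2 and 19.9 (1.26, SE 0.18), and ARID1B, a subunit of a SWI/SNF remodelling complex, at 399 and 450 against 176 and 204 (1.16, SE 0.13). The coactivator gene NCOA2 rose by 1.23. In all 4 genes the values of the rRNA-rich cells were above those of the comparison cells in both libraries without overlap. Of the polyadenylated nuclear RNAs on the list only MEG3 was tested, with no UMI in the rRNA-rich cells and 1.38 and 0.20 CPM in comparison cells, and the other 6 RNAs of that list were not analysed here.

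Of 12 lamina and nuclear envelope genes 1 was higher and 5 lower. Their median was -0.33, and 0.53 unscaled, against -0.11 and 0.74 over all genes tested. BANF1, a small protein that bridges chromatin and the envelope, fell by 1.61 and EMD, emerin, by 1.48 (unscaled -0.75 and -0.62), while SYNE1, a giant envelope protein whose gene spans 486 kb, stood at 373 and 392 CPM against 225 and 240 (0.72, SE 0.13).

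Of the 12 genes highest by the naming rule 3 encode cyclic nucleotide phosphodiesterases. PDE4D, which breaks down cyclic AMP (chromosome 16, 37897300 to 39406534, 1509 kb), stood at 359 and 146 CPM in the rRNA-rich cells of libraries 1 and 2 and at 76.4 and 34.8 in comparison cells (2.16, SE 0.14, adjusted p = 9.15e-53). The other 2 were PDE3A, at 28.7 and 28.5 against 6.63 and 9.35 (1.91, SE 0.22), and PDE1A, at 98.8 and 115 against 26.5 and 45.0 (1.65, SE 0.15). Each was higher in the rRNA-rich cells of both libraries. PDE4D overlaps 9 other RefSeq genes. NHS, RYR3, C4H1orf226, PDE1A, LRRC43, CD70, COL4A1, COL4A2, RUNX2, EBF1, CDK1, HMMR, MRPL19, ATP5F1, HSD17B10, BANF1, CD63, TET3, NCOA2, PTX3, MYL9, BCL2L11, IGF1R, TCF7L2, MTIF3, SOX5, COL5A2, HYAL2, ITGAM, ANKDD1A, PPIL1, ATP5SL, BCL2, FBLN5, LTBP1, MRPL53, MRPS27, MRPS30, MTERF1, RB1, RPL3L, SMAD3, SYNE1, TGFB3 and ZNF423 overlap at least 1. How strand was handled is not given, so reads of overlapping genes cannot be told apart and the values of these genes are uncertain.

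CEMIP, which drives the breakdown of hyaluronan (chromosome 7, 49622534 to 49792547, 170 kb), stood at 416 and 785 CPM against 90.2 and 218 (2.03, SE 0.14, adjusted p = 4.55e-46). TOX, a high-mobility-group chromatin factor, stood at 41.7 and 62.9 against 9.47 and 14.0 (2.15, SE 0.18). The heparan sulphate proteoglycan gene GPC6, spanning 1125 kb, stood at 39.5 and 72.2 against 12.9 and 20.9 (1.70, SE 0.17), and the kinase gene NUAK1 at 58.4 and 104 against 21.5 and 28.5 (1.64, SE 0.16). LRRC43 was the shortest of the 12, at 26.6 kb, with 198 and 109 against 46.8 and 22.96 (2.15, SE 0.14), and it overlaps B3GNT4. The others were NHS (1.86), KIF26B (1.74), the calcium channel gene RYR3 (1.70) and C4H1orf226 (1.67). NHS and KIF26B were not called without the block.

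**Figure D5:**
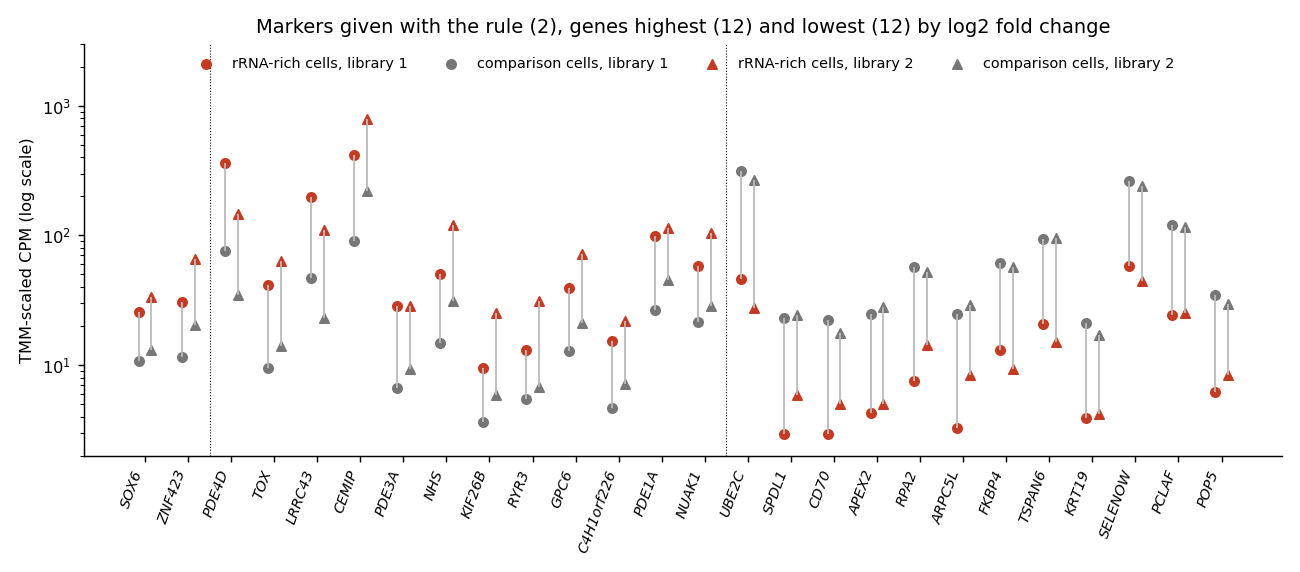
Level in TMM-scaled CPM (log scale) of SOX6 and ZNF423, which were given with the rule, and of the 12 genes highest and 12 lowest by log2 fold change, in rRNA-rich cells (red) and comparison cells (grey) of library 1 (circles) and library 2 (triangles); lines join the classes of a library. In every gene shown both libraries moved in the same direction, with PDE4D at 359 and 146 CPM against 76.4 and 34.8 and UBE2C at 46.3 and 27.7 against 313 and 267.

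Of 15 collagen genes 6 were higher and 1 lower (unscaled 12 and 0), with a median of 0.50. They span a median of 131 kb, and in decile 9 by span 500 of 881 genes of any kind (56.8%) were higher, with a median of 0.59. The list thus did not lie above genes of like span. COL4A1, a chain of basement membrane collagen, stood at 130 and 128 CPM against 67.7 and 64.2 (0.97, SE 0.14), and COL5A1 at 494 and 348 against 257 and 172 (0.98, SE 0.13). COL5A1, COL5A2 and COL4A2 were not called without the block. The lower one was COL1A2, at 1753 and 2601 against 2872 and 4007 (-0.67, SE 0.18), which was not called unscaled (0.20), with cells matched on UMIs (-0.33), with DESeq2 (-0.42) or without the block. Of 23 other matrix genes 4 were higher and 11 lower, and unscaled 10 were higher and 0 lower. The higher ones were FBN1, the fibrillin gene, at 391 and 575 against 180 and 280 (1.08, SE 0.13), FBLN5, LOXL2 and VCAN, which span 103 to 258 kb; FBLN5, LOXL2 and VCAN were named after their values were seen, and none of the 4 was called without the block. Lumican, LUM, was at 272 and 327 against 751 and 672 (-1.26, SE 0.15), a call lost unscaled (-0.39).

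Of 8 hyaluronan genes 2 were higher, CEMIP and CD44, and 2 lower, PTX3 (-1.38, unscaled -0.52) and HYAL2, whose call was lost unscaled (-0.43) and with cells matched on UMIs (-0.54). Among 23 contractile and TGF-beta genes 5 were higher and 8 lower, and unscaled 12 and 4. The contractile genes TAGLN, CNN2 and MYL9 fell by 1.47, 1.53 and 1.41 (unscaled -0.60, -0.67 and -0.55). The 5 higher ones, named after their values were seen, were all of the TGF-beta pathway: TGFB3 (1.41), LTBP1 (1.14), SMAD3 (1.01), TGFB2 (0.77) and SMAD7 (0.71). Of these only LTBP1 was called without the block. TGFB3 stood at 2.52 against 1.30 CPM in library 2 and was not tested against cells matched on UMIs. LTBP1, TGFB2 and SMAD3 span 424, 129 and 126 kb, and 56.8% and 76.0% of genes of any kind were higher in deciles 9 and 10 by span. TGFB3 and SMAD7 span 28.4 and 31.1 kb, in decile 5, where 9.53% were higher.

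Among growth factors and their receptors 8 of 24 were higher and 1 lower (unscaled 17 and 0), with a median of 0.30. They span a median of 70.5 kb. In decile 8 by span, from 66.8 to 100 kb, 308 of 881 genes of any kind (35.0%) were higher, with a median of 0.29, so the list lay near genes of like span. FGFR2 stood at 48.6 and 78.0 CPM against 18.9 and 30.6 (1.36, SE 0.17) and IGF1R at 170 and 270 against 75.2 and 112 (1.22, SE 0.13). The neuregulin gene NRG1, which spans 1062 kb, rose by 1.10 and the angiopoietin gene ANGPT1 by 1.15, neither without the block. The lower one was GREM1, a BMP antagonist (-0.93), which was not called unscaled (-0.07), with cells matched on UMIs (-0.59) or without the block.

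Skeletal and cartilage regulators went in both directions, 7 higher and 6 lower of 20 (unscaled 8 and 1). SOX5, the close relative of SOX6, spans 1007 kb and stood at 206 and 279 CPM against 87.3 and 110 (1.29, SE 0.13). RUNX2, the osteoblast factor, stood at 194 and 272 against 74.0 and 133 (1.22, SE 0.13), and was not called without the block. TWIST1, a factor of mesenchymal cells in a gene of 3.22 kb, stood at 143 and 98.2 against 361 and 284 (-1.42, SE 0.14, unscaled -0.56).

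Of 24 adipogenic and lipid genes 7 were higher and 3 lower (unscaled 13 and 1). EBF1, an early factor of the adipocyte lineage, stood at 908 and 1168 CPM against 420 and 546 (1.10, SE 0.15), and TCF7L2, a Wnt effector, at 325 and 289 against 163 and 138 (1.03, SE 0.13). FABP5, a fatty acid carrier, fell by 1.62 (unscaled -0.76). Of 19 inflammatory genes 0 were higher and 7 lower (unscaled 7 and 2). CCL2, the monocyte chemokine, stood at 607 and 206 against 1785 and 896 (-1.81, SE 0.16) and CXCL2 at 82.2 and 14.3 against 399 and 42.0 (-2.15, SE 0.17); neither was called without the block.

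Of 15 mesenchymal surface genes 2 were higher and 8 lower (unscaled 5 and 2). CD63 and CD81, tetraspanins of membranes and vesicles, fell by 1.74 and 1.55 (unscaled -0.87 and -0.68). THY1, a marker by which such cells are often sorted, stood at 237 and 203 CPM against 524 and 427 (-1.11, SE 0.14), and its call was lost unscaled (-0.25).

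Proliferation genes were lower. Of 15 core genes of division 14 were lower and 0 higher (unscaled 11 and 0), with a median of -1.85. UBE2C, a ubiquitin-conjugating enzyme of mitotic exit (chromosome 17, 48018403 to 48021542), was the lowest of all genes by the naming rule, at 46.3 and 27.7 CPM against 313 and 267 (-2.93, SE 0.16, adjusted p = 3.01e-70). CDK1, TOP2A and HMMR fell by 2.19, 2.17 and 2.14. The exception was MKI67 (-0.44, SE 0.22). Of 33 S phase genes 20 were lower and 2 higher (unscaled 9 and 7), with PCNA, the sliding clamp of replication, at 29.3 and 18.5 against 106 and 78.6 (-1.93, SE 0.18). The S phase and core lists span medians of 26.8 and 27.2 kb. In decile 5 by span, from 22.8 to 32.4 kb, 478 of 881 genes of any kind (54.3%) were lower, with a median of -0.60. The share of S phase genes called lower was near that share. Against cells matched on UMIs 11 of 32 S phase genes were lower and 4 higher, and 10 of 15 core genes were lower and 0 higher.

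Fewer of the rRNA-rich cells carried a set of division genes. At 2000 UMIs per cell, 62 of 432 cells (14.4%, exact binomial 95% interval 11.2% to 18.0%) in library 1 and 21 of 153 (13.7%, 8.70% to 20.2%) in library 2 held at least 3 of the 15 core genes. In comparison cells the share was 25.5% (24.6% to 26.3%) and 26.1% (25.3% to 26.9%), and in those matched on UMIs 26.6% (22.5% to 31.0%) and 33.3% (25.9% to 41.4%). At this depth the intervals of the classes did not overlap within either library. At 5000 UMIs the shares were 28.5% (22.01% to 35.7%) against 40.1% (39.1% to 41.1%) in library 1, and 32.4% (21.8% to 44.5%) against 40.1% (39.2% to 41.0%) in library 2, where the intervals overlapped. An exact two-sided permutation test over 2 paired libraries cannot go below p = 0.5, so the shares were not tested. Unthinned, 26.6% and 30.8% of rRNA-rich cells and 66.1% and 64.9% of comparison cells held at least 3 of these genes. RNA free in the droplets also gives such UMIs, and its part was not tested. Among cells with no core cycle gene at that depth, 187 and 67 rRNA-rich against 3740 and 4729 comparison cells, 2049 genes were higher and 3615 lower.

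Of 17 cyclin and inhibitor genes of the G1 phase 3 were higher and 10 lower (unscaled 5 and 2). CDK4 stood at 63.9 and 51.2 CPM against 206 and 211 (-1.83, SE 0.15) and its relative CDK6, spanning 255 kb, at 387 and 452 against 234 and 279 (0.71, SE 0.13). CDK6, MDM2 and RB1 were the 3 higher genes, were named after their values were seen and were not called without the block.

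The other lowest genes were short. RPA2, a single-strand DNA-binding protein, stood at 7.50 and 14.3 CPM against 56.7 and 52.6 (-2.51, SE 0.23), and the replication factor gene PCLAF at 24.1 and 25.2 against 119 and 115 (-2.27, SE 0.18). The chaperone cofactor gene FKBP4 stood at 13.04 and 9.23 against 61.3 and 56.7 (-2.34, SE 0.22) and the selenoprotein gene SELENOW at 57.7 and 44.5 against 265 and 241 (-2.29, SE 0.15). SPDL1, CD70, APEX2, ARPC5L, TSPAN6, KRT19 and POP5 fell by between 2.26 and 2.63. The 12 lowest genes span 2.92 to 26.5 kb.

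Among the rRNA-rich cells themselves, those with at least 2% of UMIs from KEF22_ genes (139 and 82) were compared with those with 0.5% to under 2% (364 and 103). Of 7923 genes tested 1914 (24.2%) were higher and 2054 (25.9%) lower in the high-share cells, and unscaled 3036 (38.3%) and 1672 (21.1%). The low-share cells are also part of the contrast with the comparison cells, so the results are set side by side only. All 79 tested cytosolic ribosomal protein genes were lower, with a median of -2.37, against 0.18 over all genes. Of 65 respiratory chain genes 62 were lower and 0 higher (median -2.20; unscaled 61 and 1), and of 68 mitochondrial ribosomal protein genes 56 were lower and 1 higher (unscaled 51 and 2). Of 36 chromatin regulators 23 were higher and 0 lower (median 0.75; unscaled 34 and 0). Of 13 collagen genes 2 were higher and 2 lower (unscaled 7 and 1). The medians of mitochondrial DNA expression and RNA processing (0.10), apoptosis (0.28) and nuclear envelope genes (0.30) were above 0 in the joint fit here. They were below 0 in the contrast with the comparison cells. By library, these medians were above 0 in library 1 (0.29, 0.43 and 0.72) and below 0 in library 2 (-0.11, -0.11 and -0.52).

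Of 12 core cycle genes tested among the rRNA-rich cells 5 were lower and 0 higher (unscaled 4 and 1), and the share of cells with at least 3 core genes at 2000 UMIs was 10.7% in the high-share cells of each library (5.66% to 18.0%, 4.03% to 21.9%) and 15.6% and 15.5% in the low-share cells (11.8% to 20.1%, 8.92% to 24.2%). These intervals overlap, and the direction was not the same at 5000 UMIs, where it was 40% (12 of 30 cells) in high-share against 26.2% (39 of 149) in low-share cells of library 1 and 16.7% (2 of 12) against 35.6% (21 of 59) in library 2. The Spearman correlation of span and log2 fold change over 7913 genes was 0.72.

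The genes at the ends of this contrast rested on few UMIs. SLC25A5, the adenine nucleotide carrier of the inner mitochondrial membrane, had 3 and 4 UMIs in the high-share cells and 156 and 67 in the low-share cells, that is 5.60 and 13.7 CPM against 100.02 and 132 (-3.69, SE 0.46, adjusted p = 1.78e-13). PET100, a factor for assembly of cytochrome oxidase, had 2 and 0 UMIs against 54 and 13, and MTIF3, an initiation factor of mitochondrial translation, 0 and 1 against 38 and 12. At the upper end ADAMTS3, a procollagen protease, had 19 and 9 UMIs against 12 and 3 (2.23, SE 0.50). Also named by the rule were SCML2, SH3RF3, ANKDD1A and KLHL29, higher, and C6H1orf174, HSD17B8 and PPIL1, lower.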

How the data were processed

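The 2 libraries of droplet-based single-cell RNA were used, with no grouping beyond the library. The deposited values were raw UMI counts by gene and cell barcode. Headers of the files name Cell Ranger 7.0.0, and per the submitters' processing notes the build was Sscrofa11.1 and the software Cell Ranger 7.00. No source used here gives the annotation, the handling of strand or intronic reads, or the cell calling. Every deposited barcode had 500 UMIs or more.

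The cells and the gene lists were chosen with earlier results of these data known. KEF22_ genes were left out of the tested tables and library sizes. Counts were summed per library and class and fitted with edgeR 4.0.16 in R 4.3.3 (TMM, filterByExpr, robust quasi-likelihood F test, Benjamini-Hochberg over all genes tested, library as block, 1 residual degree of freedom among the sums). The library pairs the classes because both come from it; library differences in the 2 classes correlated with r = 0.78 over 8823 genes. The model was also run on simulated counts, and the outcome is not reported here. Named genes were the 12 called genes highest and the 12 lowest by log2 fold change with a mean of at least 10 CPM (6 and 6 within the rRNA-rich cells), leaving out LOC, ENSSSC and KEF22_ names, and in each list up to 4 genes with the largest change; genes given as the exceptions or the minority of a list, and others so marked, were named after their values were seen. Some genes that the rule or the lists hold are not reported here. Of 868 list entries in 39 lists 828 were found by symbol. Spans come from RefSeq on Sscrofa11.1 and covered 99.7% of genes tested.

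No doublet caller was run and no doublets were removed; leaving out the 8% of cells with most UMIs was an alternative. Other alternatives were DESeq2 1.42.0, no TMM, no block, no low-count filter, cells matched on UMIs in bins of 0.1 log10, thinning to 2000 UMIs, other limits on genes and share, and each library alone. Python 3.11.15, numpy 2.4.6, scipy 1.17.1 and pandas 2.3.3 were used.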

Additional observations from a re-analysis of the deposited data

Results flagged for a closer look

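Barcodes with fewer than 1000 genes and over 15% of UMIs from KEF22_ genes lay outside every comparison. Library 1 held 17 of them, with a median share of 19.0% and a median of 716 UMIs, and library 2 held 100, with a median share of 27.8% and a median of 676 UMIs. The share reached 61.6% and 88.6%. Outside KEF22_ genes, cytosolic ribosomal proteins made up a median of 7.32% and 11.9% of their UMIs and genes spanning at least 100 kb 39.6% and 37.1%, against 25.8% and 25.9%, and 9.13% and 10.8%, in the comparison cells. There were no control samples, and no test was made.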

How the results depend on the processing

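For rRNA-rich against comparison cells, the genes called higher, 2359, became 6016 without TMM and 498 without the library as replicate block, and those called lower, 4790, became 1722, 3146 and, with cells matched on UMIs, 2642. For high-share against low-share cells, 1914 higher genes became 403 with DESeq2, 1111 with cells matched on UMIs, 3036 without TMM, 1158 with no filter on low counts and 345 without the replicate block, and 2054 lower genes became 1041 with DESeq2. In edgeR's fit 1 library alone leaves no residual degrees of freedom, so counts of calls have no value with a library left out. The correlation of span and fold change ran from 0.72 to 0.74 in rRNA-rich against comparison cells and from 0.68 to 0.71 within the rRNA-rich cells when either library was left out, and in the latter was 0.69 with no filter. From 1% of UMIs upward the cells were 2.09% of library 1 and 0.968% of library 2, and with at least 2000 genes required 2.5% and 0.825%. The share with at least 3 core cycle genes was 28.5% and 32.4% of rRNA-rich and 40.1% and 40.1% of comparison cells at 5000 UMIs (179 and 71 rRNA-rich cells deep enough), and 26.6%, 30.8%, 66.1% and 64.9% unthinned. Median genes per cell unthinned were 1955, 2040, 4532.5 and 4559.

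Of 140 genes named for rRNA-rich against comparison cells, 136 met the call rule. Without TMM 23 of the named genes lost the call and BBC3 (0.041) and LMNA (0.11) turned sign. Without the replicate block 23 lost it, and with cells matched on UMIs 13. CALB2, which did not pass, turned sign at 0.79 without TMM, 0.022 against cells under 0.25%, 0.71 thinned, 0.39 from 1%, 0.081 among cells with no core cycle gene and 0.039 without the block, and PECAM1, which did not pass either, at -0.055 from 1%. The cause of these changes was not tested. Library 2 holds fewer rRNA-rich cells, whose UMIs sum to 857179 against 2416542, which limits genes of low level there.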
